A study of Mus musculus with 6 samples.

Results

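The interferon-stimulated genes and immune GTPases examined here are 43 genes fixed by name: targets of type I interferon, the STAT and IRF factors that switch them on, and the guanylate-binding and immunity-related GTPases. They were found by matching Ensembl identifiers to symbols in a table of 36811 genes. Of the 43 members, 42 have a row. Gbp6 has none and is named only. By role there are 25 antiviral effectors and modifiers, 3 RNA sensors, 4 STAT and IRF factors, 6 guanylate-binding proteins and 5 immunity-related GTPases. Irf1 and both families of GTPases make up the interferon-gamma type (12 members), and the others the type I type (31 members).

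RNA was sequenced from regulatory T cells (Treg), the CD4 T cells that restrain immune responses, sorted from the spleen of C57BL/6 mice aged 18 to 21 weeks by the EGFP reporter at Foxp3. The 3 libraries labelled cKO came from mice of genotype Bach2fl/fl Foxp3EGFP-Cre-ERT2, and the 3 labelled WT from mice of genotype Bach2+/+ Foxp3EGFP-Cre-ERT2. Both groups thus carried the reporter and the recombinase, which is driven from Foxp3 and acts after tamoxifen; no source used here gives the tamoxifen treatment or the deleted part of Bach2. The gene Bach2 codes for a repressor of transcription, and the question is how Treg lacking it express their genes. Nothing in the labels ties each library to an animal of its own. The p-values therefore cover the spread of these libraries, which may be technical. Bach2 itself was no lower in libraries labelled cKO, at 7.88, 9.19 and 6.44 FPKM against 3.29, 8.25 and 4.80 FPKM (log2 difference 0.52, -0.24 to 1.27), and a value over the whole gene cannot check a deletion of part of it. Directions given here for the libraries labelled cKO therefore rest on the labels.

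Interferons reach T cells through surface receptors that activate JAK kinases and STAT factors. Type I interferons act through a complex with STAT2 and IRF9 that binds the interferon-stimulated response element (ISRE), while the response to interferon-gamma runs through the gamma-activated sequence (GAS). The products of the target genes block viral replication, sense foreign RNA, present antigen, or, as the large GTPases do, attack the vacuoles in which pathogens live. T cells keep a low, tonic level of many of these transcripts without infection.

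The promoters of 4 members are shown because among them they carry ISRE letters, GAS letters and those of the element that Bach factors share with AP-1. Each is a RefSeq window on GRCm38.p6, 250 bases before to 50 after the gene's start, 300 in all, printed 5′ to 3′ on the gene's strand. Capitals mark matches on either strand to GAAA, any 2 bases and GAAA (ISRE), TTCNNNGAA (GAS) or TGANTCA (the core of AP-1 and Bach-Maf elements, called the Maf core here). Isg15 lies at chr4:156200769-156201068 on the minus strand, Irf1 at chr11:53769764-53770063 on the plus strand, Gbp7 at chr3:142530086-142530385 on the plus strand, and Oas3 at chr5:120777610-120777909 on the minus strand.
Isg15: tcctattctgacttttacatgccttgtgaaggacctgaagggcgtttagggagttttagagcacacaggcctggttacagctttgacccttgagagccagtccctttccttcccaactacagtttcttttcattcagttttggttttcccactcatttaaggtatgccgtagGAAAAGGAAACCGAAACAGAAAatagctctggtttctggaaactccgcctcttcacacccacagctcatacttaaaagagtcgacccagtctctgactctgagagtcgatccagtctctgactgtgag
Irf1: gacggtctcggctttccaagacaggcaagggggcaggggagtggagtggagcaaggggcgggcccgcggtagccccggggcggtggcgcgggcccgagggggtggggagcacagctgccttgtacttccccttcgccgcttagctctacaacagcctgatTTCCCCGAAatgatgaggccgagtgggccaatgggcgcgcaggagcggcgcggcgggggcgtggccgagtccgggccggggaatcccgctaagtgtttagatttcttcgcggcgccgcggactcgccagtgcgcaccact
Gbp7: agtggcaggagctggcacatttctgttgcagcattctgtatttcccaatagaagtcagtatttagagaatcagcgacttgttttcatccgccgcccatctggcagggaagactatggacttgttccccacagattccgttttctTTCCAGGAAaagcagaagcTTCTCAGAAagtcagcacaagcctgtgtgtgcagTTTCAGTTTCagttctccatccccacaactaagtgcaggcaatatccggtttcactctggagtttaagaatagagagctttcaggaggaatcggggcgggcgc
Oas3: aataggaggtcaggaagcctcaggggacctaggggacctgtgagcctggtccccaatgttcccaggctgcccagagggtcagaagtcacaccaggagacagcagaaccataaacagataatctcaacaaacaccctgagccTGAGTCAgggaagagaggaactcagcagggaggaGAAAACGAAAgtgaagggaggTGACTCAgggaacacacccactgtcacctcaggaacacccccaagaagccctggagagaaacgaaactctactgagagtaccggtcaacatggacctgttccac

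The Isg15 window held 3 overlapping ISRE matches, whose first letters lie 78, 72 and 66 bases before the start. The Irf1 window held 1 GAS match, 90 bases before the start, and no ISRE match. Gbp7 held both kinds, with GAS matches 106 and 87 bases and an ISRE match 53 bases before the start. Oas3 held an ISRE match 75 bases before the start between Maf cores at 109 and 54 bases. Of the 43 members, 31 have a window in the table, and ISRE letters stood in the windows of 18 of them (58.1%) against 3.99% of all 27025 genes with a window. GAS letters stood in 11 of the 31 (35.5%) against 9.55%, and 6 members held both. The Maf core stood in 8 of the 31 (25.8%) against 8.97%. By type, ISRE letters were present in 6 of 8 interferon-gamma type and 12 of 23 type I type members with a window, and GAS letters in 4 of 8 and 7 of 23. Among 48 matches in members' windows, 2 overlapped a match of another motif, both in Bst2. These matches are a description of letters and do not show binding.

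The members did not differ between the groups beyond the spread of the libraries. Their levels are in FPKM, fragments per kilobase of transcript relative to the size of the library. Tests were run with limma on log2(FPKM + 1) over the 11979 genes that averaged 1 FPKM or more, which 41 members reached and Oas2 did not. None of the 41 passed a Benjamini-Hochberg adjusted p of 0.05, where 3 of all genes tested did (0.025%, with 0.00835% higher and 0.0167% lower among libraries labelled cKO), and the smallest adjusted p among them was 0.925. None reached an unadjusted p under 0.05 either, against 643 of all genes tested (5.37%, with 3.59% higher and 1.78% lower). The groups did not overlap in 1 member, Gbp7, against 10.7% of all genes tested (6.96% higher and 3.75% lower). Of the 41 log2 differences (cKO minus WT), 21 were above 0 and 20 below, with a median of 0.03, which is also the median of all genes tested. This split was 36 against 5 with libraries scaled to equal sums, which moved the median of all genes to 0.17, and 15 against 26 after quantile normalization. With trimmed-mean scaling 20 of the 41 were above 0. The few genes of highest mean level made up 32.4% of the summed FPKM in cKO 2 and 46.9% in WT 2, and scaling to equal sums rests in part on them.

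The 95% intervals say how large a difference these libraries leave room for. The interval of the log2 difference lay within 2-fold in either direction for 36 of 41 members (87.8%), against 66.1% of all genes tested. It lay within 1.5-fold for 21 members (51.2%), against 25.2%. The members were higher than most genes, with a median level of 41.1 FPKM against 14.1 FPKM, and intervals narrow with level: among the genes tested above 20 FPKM, 82.7% lay within 2-fold and 44.6% within 1.5-fold. All 11 tested interferon-gamma type members and 25 of 30 type I type members lay within 2-fold. The 5 that did not were Bst2, Oasl2, Rsad2, Ifi44 and Mx1.

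**Figure D1:**
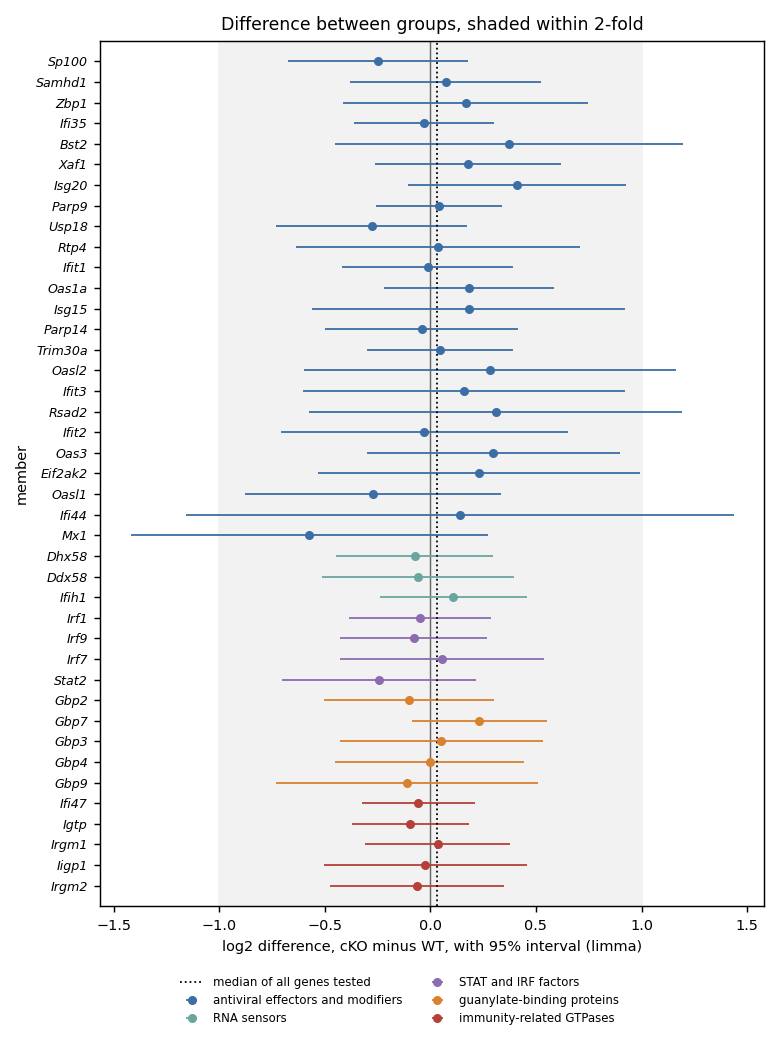
Log2 difference between the libraries labelled cKO and WT for the 41 tested members (points), with 95% intervals from limma, ordered by role and level; the shaded band marks 2-fold in either direction and the dotted line the median of all genes tested, 0.03. Every interval crosses 0, and those of Bst2, Oasl2, Rsad2, Ifi44 and Mx1 leave the band.

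The levels of the members spanned a wide range. Of the 42 members with a row, 13 had a mean of at least 100 FPKM, 24 lay between 10 and 100, 4 between 1 and 10, and 1 below 1. Against the genes tested, 33 of the 41 stood above the median level. The steps between low values put the scale at about 3270000 to 5450000 fragments a library. By this estimate, and with each gene's longest GENCODE M21 transcript, over 100 fragments lay behind the value of every library for 33 of the 41 members. In GENCODE M21, Irf9 overlaps Rnf31 on the same strand, and Rtp4, Parp9, Irf1 and Irf7 overlap Masp1, Dtx3l, Gm17334 and Phrf1 on the opposite strand. Antisense genes of the table overlap Oasl1, Ifi35, Parp9, Sp100 and Dhx58. These overlaps are of whole gene spans, and whether exons overlap was not checked. The strand setting of the counting is also unknown here. Reads of such pairs could thus be shared, and the values of these members are uncertain.

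**Figure D2:**
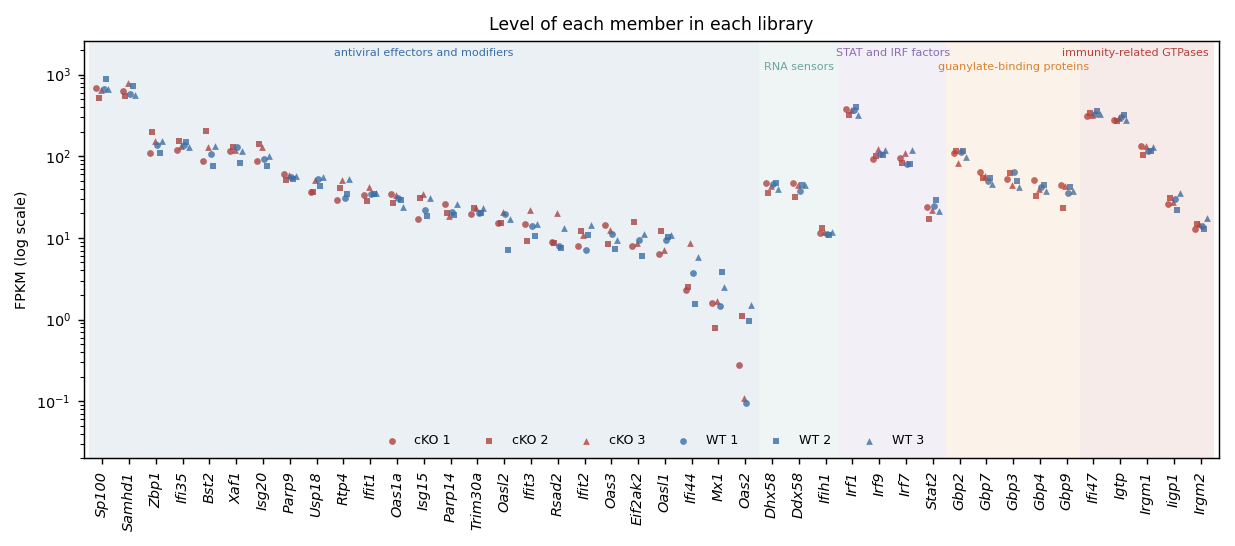
FPKM on a log scale of the 42 members with a row in each of 6 libraries (red, labelled cKO; blue, labelled WT; circle, square and triangle, replicates 1, 2 and 3), grouped by role and ordered by mean level. Sp100 and Samhd1 are highest, Oas2 is lowest, and the colours mix in nearly every gene.

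The most abundant antiviral effectors were Sp100 and Samhd1. Sp100, a component of nuclear bodies that restricts DNA viruses, stood at 691, 521 and 639 FPKM across cKO 1, 2 and 3, against 671, 877 and 658 FPKM across WT 1, 2 and 3. The highest and the lowest value came from WT 2 and cKO 2, the other four lay close together, and the groups overlapped, with a log2 difference of -0.25 (95% interval -0.67 to 0.18). The mouse genome holds further copies related to Sp100, and how the counting shared reads among them is not given. Samhd1, a triphosphatase that lowers the nucleotide pool, stood at 637, 542 and 796 FPKM among libraries labelled cKO and at 575, 728 and 566 FPKM among those labelled WT. Its groups overlapped, with a log2 difference of 0.07 (-0.38 to 0.52). Zbp1, a sensor of Z-form nucleic acids, stood at 109, 196 and 152 FPKM against 139, 108 and 152 FPKM, where cKO 2 was highest and cKO 1 and WT 2 were about equally low (log2 difference 0.17, -0.41 to 0.75).

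Isg20 had the smallest unadjusted p of the 41 members (limma, 0.101). This RNA exonuclease stood at 87.9, 143 and 131 FPKM among libraries labelled cKO and at 92.1, 75.9 and 99.6 FPKM among those labelled WT. cKO 2 and 3 lay above every library labelled WT and cKO 1 below 2 of them, with a log2 difference of 0.41 (-0.10 to 0.93). Without cKO replicate 1 the difference was 0.62, with a limma adjusted p of 0.688. Bst2, the tetherin that holds budding virions at the membrane, stood at 87.5, 206 and 129 FPKM against 106, 75.6 and 132 FPKM. A single library, cKO 2, set it apart from the rest (log2 difference 0.37, -0.45 to 1.2). The myeloid transcripts S100a8 and S100a9 were also highest in cKO 2, at 545 and 245 FPKM, against ranges of 74.6 to 152 and 45.8 to 128 FPKM in the other libraries. Lyz2 of the myeloid and dendritic list also peaked there, with 83.2 FPKM against a range of 35.5 to 76.6 FPKM elsewhere. Ly6g was above 0 only in cKO 1 (3.77 FPKM) and cKO 2 (2.71 FPKM). The remaining markers of this list did not follow. Csf1r was lowest in cKO 2, at 3.23 FPKM against 4.26 to 6.82 FPKM. Fcgr3, Adgre1, Cd14, Itgam and Itgax were highest in other libraries. Siglech, which marks the plasmacytoid dendritic cells in which Bst2 is abundant, reached at most 0.848 FPKM in the 6 libraries and 0.205 FPKM in cKO 2. The part of other cells in the Bst2 value was not tested, and in bulk samples fewer cells of a type and less RNA per cell cannot be told apart.

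Of the classical type I targets, Isg15, Rsad2 and Ifi44 varied more between libraries of a group than between groups. Isg15, the ubiquitin-like modifier, stood at 17.1, 31.2 and 34.9 FPKM among libraries labelled cKO and at 22.1, 18.6 and 30.7 FPKM among those labelled WT. High and low values occurred in both groups, with a log2 difference of 0.18 (-0.56 to 0.92). Usp18, the protease that removes ISG15 and restrains the type I receptor, stood at 36.6, 36.6 and 51.6 FPKM against 52.1, 42.8 and 56.1 FPKM. The libraries cKO 1 and 2 lay below all others (log2 difference -0.28, -0.73 to 0.17). For Usp18 the within-group SD was 0.24 on the log2(FPKM + 1) scale, slightly below the size of the difference. Rsad2 (viperin), which makes a chain-terminating nucleotide, stood at 8.85, 8.72 and 20.1 FPKM against 7.86, 7.45 and 13.2 FPKM, and Ifi44 at 2.31, 2.52 and 8.74 FPKM against 3.76, 1.57 and 5.91 FPKM. In both genes replicate 3 stood above replicates 1 and 2 of its group. Their log2 differences were 0.31 (-0.57 to 1.19) for Rsad2 and 0.14 (-1.16 to 1.44) for Ifi44, whose value rests on 20 to 144 fragments.

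The Ifit proteins bind viral RNA, and their transcripts showed no common direction. Ifit1 stood at 34.9 ± 6.95 FPKM (SD, n = 3) for cKO and 34.8 ± 0.226 FPKM (SD, n = 3) for those labelled WT, with values of 33.9, 28.4 and 42.2 FPKM behind the former. Ifit2 stood at 10.4 ± 2.20 against 10.8 ± 3.69 FPKM, and Ifit3 at 15.5 ± 6.54 against 13.1 ± 2.34 FPKM (SD, n = 3 each). Their log2 differences were -0.013, -0.028 and 0.16. Ifit3 has a near-identical neighbour, Ifit3b, listed at 1.14 to 5.86 FPKM, so its reads could be split between the pair.

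No gene of the Oas family, whose enzymes make the activator of RNase L, passed. Oas1a stood at 31.8 ± 4.53 against 27.8 ± 3.36 FPKM and Oas3 at 11.8 ± 3.13 against 9.30 ± 1.88 FPKM (SD, n = 3 each), with log2 differences of 0.18 and 0.30. The Oas-like gene Oasl1 stood at 8.55 ± 3.18 against 10.2 ± 0.719 FPKM (-0.27). Oasl2 stood at 17.0 ± 3.13 against 14.8 ± 6.71 FPKM (0.28), the latter with a low value of 7.18 FPKM in WT 2. Oasl1 was the 1 member with an unadjusted p under 0.05 without cKO replicate 2 (limma, adjusted p = 0.969), at a difference of -0.53. Oas2, under the level tested, stood at 0.280, 1.10 and 0.110 FPKM against 0.0959, 0.948 and 1.49 FPKM, values that rest on 2 to 24 fragments.

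Mx1 had the largest log2 difference in size among the 41 members, at -0.57 (-1.42 to 0.27). It encodes a GTPase that blocks influenza virus and is known to carry a deletion in C57BL/6 and other laboratory strains. Its levels were among the lowest, at 1.6, 0.781 and 1.70 FPKM among libraries labelled cKO and 1.46, 3.79 and 2.49 FPKM among those labelled WT. WT 2 and 3 lay above the rest and WT 1 among the libraries labelled cKO, and 14 to 39 fragments lay behind each value. The remaining antiviral members were Ifi35 (log2 difference -0.032), Xaf1 (0.18), Rtp4 (0.036), Trim30a (0.046), Parp14 (-0.042), Parp9 (0.041) and the RNA-dependent kinase Eif2ak2 (0.23). The interval of Eif2ak2 was wide, from -0.53 to 0.99. Parp9, a partner of the ubiquitin ligase Dtx3l with which it shares a promoter region, was the steadiest of the antiviral members, at 51.9 to 60.0 FPKM over all 6 libraries. In all, 16 of the 24 antiviral members tested were above 0 and 8 below, with a median of 0.11, against 55% of all genes tested above 0.

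The 3 RNA sensors were close to equal in both groups. Ddx58 (RIG-I), which detects RNA ends, stood at 47.1, 31.5 and 44.7 FPKM among libraries labelled cKO and at 37.4, 45.0 and 44.6 FPKM among those labelled WT. The lowest value was that of cKO 2, and the log2 difference was -0.059 (-0.51 to 0.39). Ifih1 (MDA5), which detects long double-stranded RNA, was the steadiest of the 3 at 11.6, 13.1 and 12.0 FPKM against 11.1, 10.9 and 11.8 FPKM. Its within-group coefficient of variation was 5.59%, below the counting error of 6.08% that its estimated fragments alone would give, and it was the 1 member of 42 for which this held. Dhx58 (LGP2), the regulator of both sensors, stood at 46.5, 35.5 and 43.8 FPKM against 45.4, 47.4 and 39.3 FPKM (-0.075, -0.45 to 0.30).

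Among the factors, Irf1, Irf7, Irf9 and Stat2 had log2 differences from -0.24 to 0.06. Irf1, the early target of interferon-gamma, was one of the most abundant members at 375, 316 and 365 FPKM among libraries labelled cKO and 371, 402 and 322 FPKM among those labelled WT. The groups covered nearly the same range (log2 difference -0.050, -0.39 to 0.29). Irf9, the DNA-binding subunit of the type I complex, stood at 92.0, 100.3 and 121 FPKM against 107, 104 and 119 FPKM (-0.078, -0.43 to 0.27). Irf7, which amplifies the type I response, stood at 95.3, 81.7 and 110.3 FPKM against 79.4, 81.2 and 118 FPKM (0.056, -0.43 to 0.54). In Irf7 and Irf9 replicate 3 was the highest of its group on both sides. Stat2, the partner of Irf9, stood at 24.1, 16.9 and 21.9 FPKM against 24.4, 29.1 and 21.3 FPKM (-0.24, -0.70 to 0.22), with the extremes again in cKO 2 and WT 2.

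Gbp7 was the 1 member whose groups did not overlap. Guanylate-binding proteins are large GTPases that coat and break the vacuoles of intracellular pathogens, and Gbp7 stood at 64.3, 54.8 and 57.3 FPKM among libraries labelled cKO and at 49.7, 54.6 and 45.6 FPKM among those labelled WT. The lowest library labelled cKO and the highest labelled WT were nearly equal. The log2 difference was 0.23 (-0.089 to 0.55), and it did not pass (limma, adjusted p = 0.925). Its promoter, printed above, held both ISRE and GAS letters. The other four in the table did not follow Gbp7. Gbp2 stood at 109, 115 and 82.5 FPKM against 113, 116 and 96.8 FPKM (-0.10, -0.50 to 0.30), and Gbp3 at 53.4, 63.2 and 44.9 FPKM against 63.6, 50.4 and 42.4 FPKM (0.051, -0.43 to 0.53). For both, replicate 3 was the lowest of its group on each side. Gbp4 and Gbp9 had log2 differences of -0.0038 and -0.11, with their lowest values, 32.9 and 23.4 FPKM, both in cKO 2. In GENCODE M21 the genes Gbp4, Gbp8 and Gbp9 overlap on the same strand, so the counting could share reads among them and their values are uncertain.

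The immunity-related GTPases were the least variable role, with a median within-group SD of 0.16 on the log2(FPKM + 1) scale. Ifi47 stood at 314, 339 and 321 FPKM among libraries labelled cKO and at 332, 355 and 327 FPKM among those labelled WT. Its highest value was 1.13 times its lowest, and the log2 difference was -0.058 (-0.33 to 0.21). Igtp (Irgm3), one of the regulators that keep the effector GTPases off the cell's own membranes, stood at 281, 273 and 293 FPKM against 303, 321 and 282 FPKM (-0.094, -0.37 to 0.18). Irgm1, a second such regulator, stood at 132, 104 and 135 FPKM against 117, 116 and 129 FPKM (0.034, -0.31 to 0.38). Irgm2 stood at 14.1 ± 1.14 against 14.8 ± 2.46 FPKM, and the effector Iigp1 at 28.1 ± 2.65 against 29.0 ± 6.78 FPKM (SD, n = 3 each), with log2 differences of -0.063 and -0.024. Irgm2 and Igtp overlap on the same strand in GENCODE M21, as Ifi47 and Olfr56 do, so their values are uncertain in the same way. All 5 intervals lay within 1.5-fold in either direction.

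Set side by side, the type I type members had a median log2 difference of 0.05 (18 of 30 above 0) and the interferon-gamma type members one of -0.05 (3 of 11 above 0). The medians differed by 0.10, and this difference was not tested. Leaving out cKO 3 gave a difference of -0.022, leaving out WT 2 or WT 1 gave 0.017 or 0.048, and leaving out WT 3 gave 0.21. The types differed in spread. The median within-group SD on the log2(FPKM + 1) scale was 0.26 for the type I type, 0.17 for the interferon-gamma type and 0.30 for all genes tested. The highest library was over 2-fold above the lowest in 9 of 30 type I type members, in 0 of 11 interferon-gamma type members and in 46.1% of all genes tested. The former lie at lower levels, with a median of 32.3 against 54.4 FPKM.

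**Figure D3:**
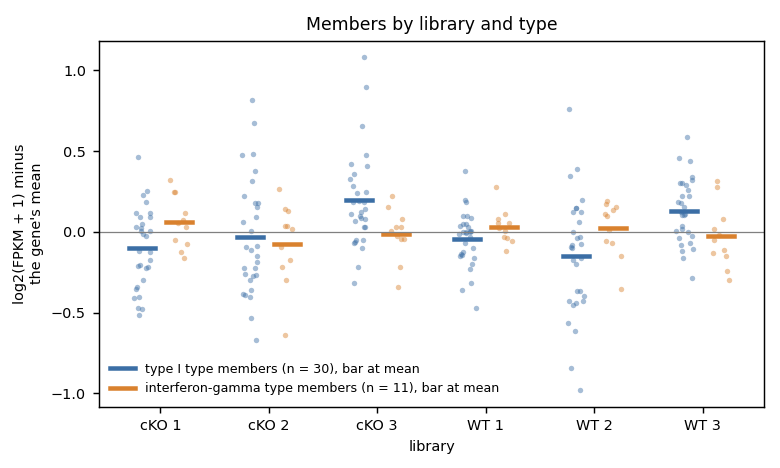
Deviation of each tested member from its own mean over 6 libraries, on the log2(FPKM + 1) scale, by library, for 30 type I type (blue) and 11 interferon-gamma type (orange) members, with bars at the means. The type I mean is highest in cKO 3 (0.19) and WT 3 (0.13) and lowest in WT 2 (-0.15), while the interferon-gamma type means lie between -0.073 and 0.061.

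The type I type members varied between libraries within both groups. Their mean deviation from their own 6-library means was -0.098, -0.030 and 0.19 across cKO 1, 2 and 3, with -0.044, -0.15 and 0.13 across WT 1, 2 and 3, against means of all genes tested between -0.037 and 0.041. Replicate 3 was the highest library of both groups in 11 of 41 members (26.8%), against 8.21% of all genes tested. This pattern was chosen after the values were seen. These 11 were Isg15, Ifit1, Ifit3, Usp18, Ifi44, Rsad2, Rtp4, Trim30a, Irf7, Irf9 and Irgm1, of which 10 are of the type I type. Rtp4, a chaperone of receptors, shows it at 29.0, 40.5 and 51.9 FPKM across cKO 1, 2 and 3, against 31.0, 34.4 and 53.1 FPKM across WT 1, 2 and 3. Of the other 8 pairs of libraries, the most frequent among members was cKO 2 with WT 3, at 9 members (22.0%) against 16.5% of all genes, and the least frequent was cKO 3 with WT 1, at 1 member against 6.76%. Both replicates 3 had the same estimated scale, 4270000 fragments. They also had the lowest summed levels of 11 myeloid and dendritic markers in their groups, at 209 FPKM in cKO 3 against 374 and 886 FPKM, and at 177 FPKM in WT 3 against 274 and 303 FPKM. S100a8, S100a9 and Lyz2 carry most of these sums. Lower on the list, Csf1r, Cd14, Itgax and Siglech were each highest of their group in cKO 3, at 6.49, 1.70, 0.427 and 0.848 FPKM. In WT 3 the same genes were each lowest of their group, at 4.26, 0, 0 and 0.26 FPKM. The part of these values in the pattern was not tested. The labels do not say what a replicate number stands for.

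**Figure D4:**
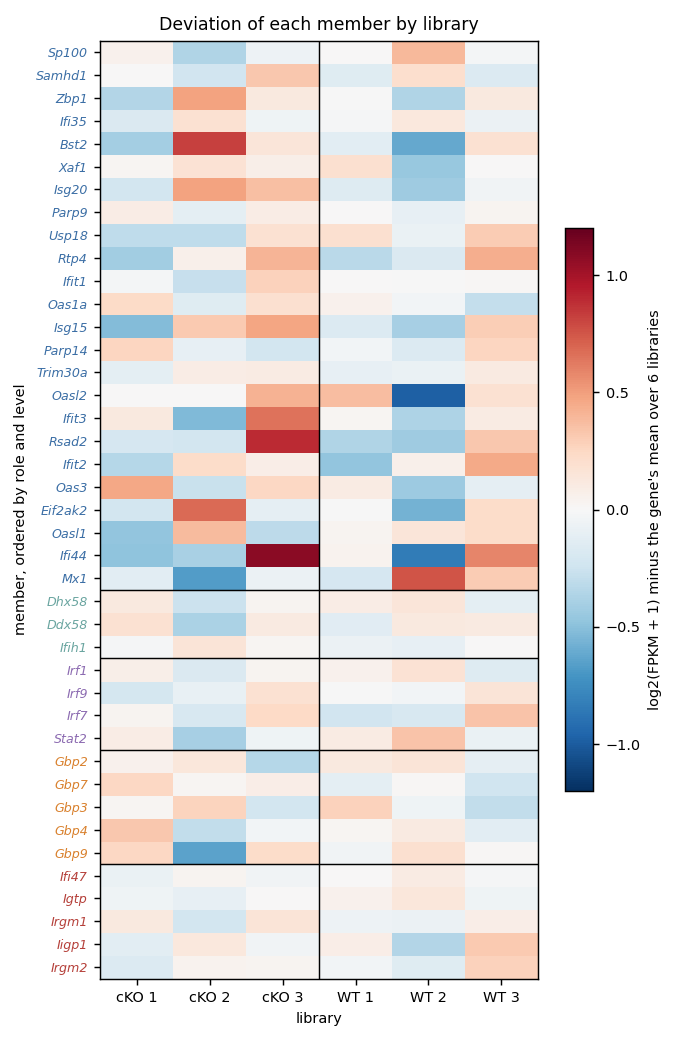
Heat map of log2(FPKM + 1) minus the gene's mean over 6 libraries for the 41 tested members (rows, label colours and black lines marking the roles) in each library (columns); red is above and blue below the mean. Red in both replicates 3 runs through Ifi44, Rsad2, Rtp4 and Isg15, and the GTPase rows at the bottom are pale.

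The genes that feed the response were read from 6 further lists of 84 interferon pathway genes, of which 65 were tested. None passed over all genes (limma, adjusted p at least 0.915), 2 had an unadjusted p under 0.05 (3.08% against 5.37% of all genes tested), and the groups did not overlap in 5 (7.69% against 10.7%). These 5 were Ifng, Ifngr1, Irf8 and Ddx60, higher among libraries labelled cKO, and Rnf213, lower. Among the ligands, Ifng was the only one tested. The gene of interferon-gamma stood at 4.59, 4.39 and 4.41 FPKM among libraries labelled cKO and at 3.66, 1.81 and 1.63 FPKM among those labelled WT. All 3 libraries labelled cKO lay above those labelled WT, with a log2 difference of 0.75 (0.068 to 1.43), and the gene did not pass (limma, adjusted p = 0.915). Only 6 to 24 fragments lay behind each value. NK cells are a known source of interferon-gamma, and their markers Klrd1 and Klrb1c, named after their values were seen, had groups that did not overlap in the other direction. Klrd1 stood at 0, 0.546 and 0.336 FPKM among libraries labelled cKO, against 3.46, 1.81 and 1.35 FPKM (log2 difference -1.28, -2.19 to -0.36; limma, adjusted p = 0.874). Klrb1c, under the level tested, stood at 0.742, 0.685 and 0.483 FPKM against 1.35, 1.5 and 0.866 FPKM. Ncr1 and Gzma of the same list did not follow, and their groups overlapped. Ncr1, also under the level tested, stood at 0.813, 0 and 0.740 FPKM against 0.324, 0.482 and 0 FPKM. Gzma averaged 6.16 FPKM among libraries labelled cKO against 5.88 FPKM. The part of NK cells in the Ifng value was not tested. The type I and type III genes Ifnb1, Ifna2, Ifna4, Ifne, Ifnl2 and Ifnl3 were listed at 0 in all 6 libraries, and Ifnk reached at most 0.387 FPKM.

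Of the 8 receptor and JAK-STAT genes, 6 had log2 differences above 0 and none passed. Ifngr1, the ligand-binding chain of the interferon-gamma receptor, stood at 311, 260 and 323 FPKM among libraries labelled cKO and at 206, 257 and 239 FPKM among those labelled WT. Its groups did not overlap, though cKO 2 and WT 2 nearly met, and the log2 difference was 0.35 (-0.0054 to 0.70; limma, adjusted p = 0.925). Ifnar1, a chain of the type I receptor, stood at 44.8, 45.3 and 44.6 FPKM against 40.4, 41.8 and 49.1 FPKM (0.041, -0.27 to 0.35). The interferon-gamma type members had differences on both sides of 0, with 3 of 11 above it. Gbp7 stood at 0.23, Irf1 at -0.050 and Igtp at -0.094. Whether these relate to the values of Ifng and Ifngr1 was not tested.

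**Figure D5:**
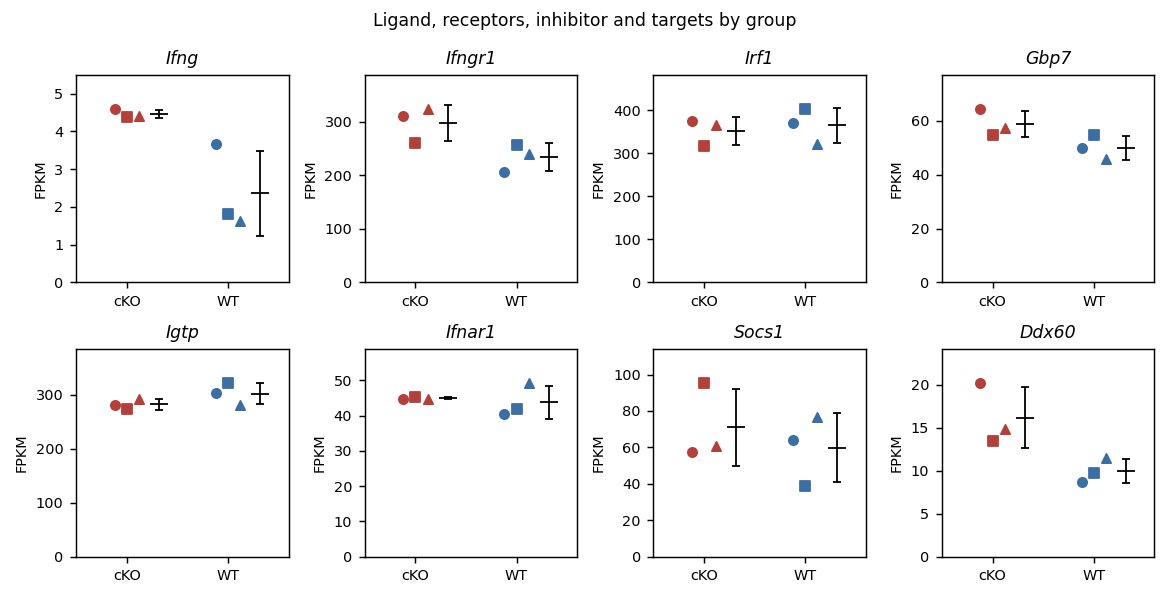
FPKM of the ligand Ifng, the receptor chains Ifngr1 and Ifnar1, the inhibitor Socs1 and the targets Irf1, Gbp7, Igtp and Ddx60 in each library (red, labelled cKO; blue, labelled WT; circle, square and triangle, replicates 1, 2 and 3), with mean and SD (black, n = 3); each vertical axis starts at 0. The groups separate in Ifng, Ifngr1, Gbp7 and Ddx60 and overlap in the other panels.

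Of the negative regulators and other IRFs, 5 of 10 lay above 0. Socs1, the feedback inhibitor of JAK kinases, stood at 57.4, 95.1 and 60.5 FPKM among libraries labelled cKO and at 64.0, 39.1 and 76.8 FPKM among those labelled WT, and the groups overlapped (0.26, -0.47 to 0.98). The nucleic acid sensing genes upstream had 3 of 9 above 0 and a median of -0.06. Of the genes of class I antigen presentation, targets of both interferons, 10 of 11 tested lay above 0, against 55% of all genes tested. Their median was 0.04, with 0 unadjusted p under 0.05. Among 26 tested genes of the list of other interferon-induced genes, 14 lay above 0, with a median of 0.05. The helicase gene Ddx60 was the 1 gene there with an unadjusted p under 0.05 (limma), at 20.2, 13.4 and 14.9 FPKM against 8.70, 9.79 and 11.5 FPKM. Its groups did not overlap, with a log2 difference of 0.63 (0.14 to 1.12; limma, adjusted p = 0.915).

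The 7 Treg and T cell markers were present in all 6 libraries, Foxp3 at 5.16 to 9.44 FPKM and Il2ra at 47.6 to 60.2 FPKM. Summed over their lists, 11 myeloid and dendritic markers lay between 177 and 886 FPKM, 6 B cell markers between 106 and 159 FPKM, 6 CD8 and NK cell markers between 26.6 and 31.6 FPKM (of which Cd8b1 made up 18.8 to 22.4 FPKM), and 6 erythroid markers between 94.4 and 513 FPKM. The erythroid sums were 252, 472 and 513 FPKM among libraries labelled cKO and 230, 94.4 and 228 FPKM among those labelled WT. Of 5 erythroid markers tested, 3 had an unadjusted p under 0.05 (limma, smallest adjusted p 0.846), all higher among libraries labelled cKO. The part of such cells in the members' values was not tested.

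Grouped by the letters of their promoters, the members had small median differences, beside a median of 0.03 and 55% above 0 for all genes tested. The groups share members, as 6 hold both ISRE and GAS letters. The 18 tested members with ISRE letters had a median log2 difference of 0.08 (12 above 0), the 11 with GAS letters one of 0.07 (6 above 0) and the 8 with a Maf core one of 0.10 (6 above 0). The differences of these 8 ran from -0.10 for Gbp2 to 0.31 for Rsad2. Oas3, with 2 Maf cores in the window printed above, stood at 0.30 (-0.30 to 0.90).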

How the data were processed

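Gene expression was measured by RNA sequencing (SmartSeq2 libraries on a HiSeq instrument, per the labels' protocols) in 6 libraries of sorted Treg. The authors deposited FPKM values of 36811 genes; that cuffnorm made them is known from the table's name. FastQC, cutadapt and HISAT2, with builds NCBIM37 and mm9, are named in the submitters' processing notes. For annotation, strand setting and filters, the step is not given in the sources used here.

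Symbols were matched for 31840 rows. The test was limma 3.58.1 (R 4.3.3), run on log2(FPKM + 1) for every gene averaging 1 FPKM or more, using a variance trend, no block and Benjamini-Hochberg adjustment over all of them. This scale understates changes of low genes. The procedure was tested on simulated data, with changes larger than any difference seen among the members. That test does not show how well differences of their size would be found. Fragments per library were estimated from steps between low values of genes with 1 transcript of at least 1500 bases, less 200 bases. For 80.2% to 87.3% of these values the result was whole within 0.1. Promoters are RefSeq windows on GRCm38.p6, whereas the values were made on an earlier build. Python 3.11.15, numpy 2.4.6, pandas 2.3.3 and matplotlib 3.10.9 were used.

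The members, lists and tests were chosen with earlier results of these data known. Members were given in every library where their groups did not overlap, their unadjusted p was under 0.05, or they were among the 3 highest of their role; others were added after their values were seen. Of the further interferon lists, genes with an unadjusted p under 0.05 were named, and Ifng, Ifnar1, Ifngr1 and Socs1 in any case; 1 other gene chosen by name is not reported here. Alternatives changed the pseudocount (0.1 or 5), the filter (none, or 5 FPKM), the scaling (equal sums, quantile, trimmed mean), the variance trend, the weighting of libraries by quality and the replicate block, or left out each library in turn.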

Additional observations from a re-analysis of the deposited data

How the results depend on the processing

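No member passed in any of the 16 alternatives, and neither did the 7 other genes given with a difference (Bach2, Foxp3, Ifng, Ifngr1, Ifnar1, Socs1 and Ddx60; limma, lowest adjusted p 0.316). The count of all genes past the threshold was 1 with the replicate block and ranged from 5 to 15 without 1 library, against 3; fewer degrees of freedom remain with the block, and the cause of the others was not tested. The members with an unadjusted p under 0.05 numbered 1 with library quality weights (Isg20) and 0 to 1 without 1 library (Isg20 without cKO replicate 1, Oasl1 without cKO replicate 2). With equal sums the median log2 difference was 0.19 for all members, 0.20 for the type I type and 0.11 for the interferon-gamma type, where the median of all genes moved as well. Without 1 library the first ranged from -0.050 to 0.077. Over all genes tested, libraries that share a replicate number did not deviate together (correlations of deviations -0.060, -0.18 and -0.017). No such correlation was computed for the type I type members, whose replicate 3 pattern rests on mean deviations and a count. The block moved no member past the threshold.

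Differences near 0 changed sign without passing on either side, for causes not tested. Those that did so under equal sums were Ifit1 at 0.14, Ifit2 at 0.12, Ifi35 at 0.12, Parp14 at 0.11, Ddx58 at 0.095, Dhx58 at 0.079, Irf1 at 0.11, Irf9 at 0.078, Gbp2 at 0.055, Gbp4 at 0.15, Gbp9 at 0.041, Igtp at 0.062, Irgm2 at 0.085, Iigp1 at 0.13 and Ifi47 at 0.10. With library quality weights they were Ifit1 at 0.16, Ifit2 at 0.17, Ddx58 at 0.10, Irf9 at 0.056, Gbp3 at -0.20, Gbp9 at 0.11 and Foxp3 at -0.091, after quantile normalization Rtp4 at -0.040, Parp9 at -0.037, Samhd1 at -0.0012, Irf7 at -0.031, Gbp3 at -0.018, Irgm1 at -0.053 and Ifnar1 at -0.026, and with trimmed-mean scaling Irgm1 at -0.0016. Without 1 library the difference ranged for Isg15 from -0.011 to 0.48, Ifit1 from -0.16 to 0.12, Ifit2 from -0.27 to 0.19, Ifit3 from -0.13 to 0.46, Oasl2 from -0.13 to 0.54, Ifi35 from -0.13 to 0.048, Ifi44 from -0.36 to 0.47, Rsad2 from -0.060 to 0.55, Xaf1 from -0.0045 to 0.32, Rtp4 from -0.16 to 0.26, Zbp1 from -0.032 to 0.39, Parp14 from -0.18 to 0.077, Eif2ak2 from -0.048 to 0.40, Samhd1 from -0.074 to 0.20, Ddx58 from -0.17 to 0.12, Dhx58 from -0.15 to 0.037, Irf1 from -0.14 to 0.026, Irf7 from -0.050 to 0.24, Irf9 from -0.19 to 0.0086, Gbp2 from -0.20 to 0.044, Gbp3 from -0.085 to 0.20, Gbp4 from -0.17 to 0.14, Gbp9 from -0.26 to 0.18, Irgm1 from -0.033 to 0.15, Irgm2 from -0.15 to 0.059, Iigp1 from -0.21 to 0.13, Ifnar1 from -0.012 to 0.12, Socs1 from -0.019 to 0.46 and Foxp3 from -0.065 to 0.25. Of the 48 genes, 16 kept their sign in all alternatives that gave a value. Precision is limited by 3 libraries a group: within-group coefficients of variation exceeded counting error even at few fragments, at 41.3% against 19.8% for Mx1, 70.3% against 11.9% for Ifi44 and 95.7% against 30.2% for Oas2. Ifih1 was the exception among the members.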
